A study of Mus musculus with 16 samples.

Results

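Anti-Müllerian hormone (AMH) and the genes through which cells receive it were followed in single cells of the newborn mouse testis. The 7 genes are the hormone Amh, its type II receptor Amhr2, the type I receptors Bmpr1a, Bmpr1b and Acvr1, and the signal carriers Smad1 and Smad5. They were chosen by name for their known roles, from 30451 genes in the count table, and all 7 were present. Each gene was read by cell type and, for Sertoli cells, by cell cycle state.

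AMH is a hormone of the TGF-β family that fetal and newborn Sertoli cells, the somatic cells of the seminiferous cords, secrete in large amounts. It makes the Müllerian ducts of male embryos regress, and it is known to act on Leydig cells, the androgen-making cells between the cords, where it lowers steroid synthesis. The hormone binds Amhr2, a receptor that serves no other known ligand, and Amhr2 then pairs with a type I receptor that it shares with the bone morphogenetic proteins (BMPs). The type I receptors phosphorylate Smad1 and Smad5, which enter the nucleus with Smad4 and switch on targets such as the Id genes.

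The study sequenced whole testes of mice at postnatal day 2, of wild type animals and of Ddx5 conditional knockout animals in which Mvh-Cre, a Cre driven by a germ cell promoter, removes floxed Ddx5 alleles. Ddx5 encodes an RNA helicase. The males used for breeding were heterozygous animals made with the same Cre, and whether somatic cells of the knockout animals carry 1 or 2 working copies is not given in the sources used here. Cells were released with TrypLE and captured on the 10x Chromium platform, with 3′ ends counted by unique molecular identifiers (UMIs). GEO lists 16 samples, 8 for each genotype, but the count table separates only 2 sets of barcodes, here called the wild type library and the library labelled Ddx5 knockout. No label ties either set to a genotype, and these names rest on the numbers of cells that the study's methods give for each genotype.

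With 1 library for each genotype there was no replicate and no test, and genotype and library cannot be told apart. Levels are given as CPM, the UMIs of a gene summed over the cells of a class, for every 1000000 UMIs of those cells. Intervals are 95% and exact (Poisson for a level, Clopper-Pearson for a share of cells, conditional binomial for a ratio), and they cover counting error only, not the variation between animals. Ratios are CPM ratios, and a ratio is called past 1.5-fold when it is above 1.5 or below its inverse.

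The wild type library held 6763 barcodes with 84263163 UMIs, and the library labelled Ddx5 knockout held 5423 barcodes with 67558106 UMIs. A floor of 2000 detected genes and a ceiling of 10% mitochondrial UMIs left 6329 and 4950 cells with a median of 11170 and 11668.5 UMIs. UMIs of the CRE transgene numbered 0 in the wild type library and 20 in the other. In germ cells outside the Sertoli gate Ddx5 itself stood at 1218 CPM in 57 wild type cells. In the 6 such cells of the other library it stood at 1603 CPM. So few cells do not settle whether the targeted gene was lower, and the name of that library stands for this assignment only. The paper reports lower Ddx5 mRNA in sorted Oct4-GFP gonocytes of knockout animals by single-cell qRT-PCR. In the Sertoli, Leydig, myoid and stroma classes described next the range of Ddx5 was 606 to 951 CPM in wild type and 548 to 911 CPM in the other library.

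Cell types were set by marker gates. A Sertoli cell had UMIs of at least 2 of Rhox8, Cst9, Cst12 and Aard (2615 cells in wild type, 1876 in the other library). Leydig cells carried at least 20 UMIs of Cyp11a1, Cyp17a1 and Hsd3b1 together (177 and 143), peritubular myoid cells at least 5 of Acta2 and 2 of Myh11 (764 and 524), stromal cells at least 1 of Pdgfra (3867 and 3283), and germ cells at least 3 of Dazl, Ddx4, Mael and Stk31 (125 and 12). The gates overlapped widely. The Sertoli gate took in 20.9% and 29.4% of the Leydig-gated cells, 13.9% and 14.2% of the stroma-gated cells and 54.4% and 50% of the germ-gated cells. Values are therefore given as gated and again for separated classes, a choice made after seeing the overlap, in which Sertoli cells passed no other gate (1994 and 1377 cells), Leydig cells were not in the Sertoli gate (140 and 101), myoid cells were in neither of these (675 and 473), stromal cells were in none of the other 4 gates (2659 and 2347) and germ cells were not in the Sertoli gate (57 and 6). Macrophages, named by at least 3 of C1qa, C1qb, Tyrobp and Fcer1g (25 and 20 cells), served as a class that should lack Amh.

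The separated classes were checked on markers that no gate used, while germ cells and macrophages rest on their gates alone. Sertoli cells held Sox9 at 283 and 292 CPM and Dhh at 222 and 240 CPM. Leydig cells held Insl3 at 1332 and 799 CPM and Star at 740 and 988 CPM. Myoid cells held Tagln at 955 and 839 CPM, against 121 and 107 CPM in stroma, and stroma held Dcn at 2985 and 3178 CPM, against 609 and 687 CPM in myoid cells. The doublet caller Scrublet marked 8.99% and 12.9% of Sertoli cells as gated but 0.251% and 1.23% of separated Sertoli cells. It still marked 1.43% and 7.92% of separated Leydig cells, 4.30% and 3.17% of myoid cells and 0.865% and 0.980% of stromal cells.

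In the genome (GRCm38, GENCODE M21) Amh is a short gene, chr10:80805243-80807648 on the plus strand, lying between Sf3a2, which ends 318 bases before it on the same strand, and Jsrp1, which ends 847 bases after it on the opposite strand. Amhr2 lies at chr15:102445367-102454633 on the plus strand. The type I receptors are Bmpr1a at chr14:34410734-34503341, Bmpr1b at chr3:141837136-142169425 and Acvr1 at chr2:58388644-58567157, all on the minus strand. Smad1 lies at chr8:79338395-79399518 on the minus strand and Smad5 at chr13:56703010-56742377 on the plus strand. All 7 are annotated as protein coding.

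The start of Amhr2 is shown because it was the receptor found past 1.5-fold higher than in stroma in both Sertoli and Leydig cells, as described later. The sequence gives the 250 bases before the RefSeq start of the gene (GRCm38.p6, chr15:102445117-102445366, plus strand), with the letters CAAGGTCA in capitals. They are of the kind that NR5A1 (SF-1), a nuclear receptor of steroid-making and supporting cells, is known to bind.
Amhr2: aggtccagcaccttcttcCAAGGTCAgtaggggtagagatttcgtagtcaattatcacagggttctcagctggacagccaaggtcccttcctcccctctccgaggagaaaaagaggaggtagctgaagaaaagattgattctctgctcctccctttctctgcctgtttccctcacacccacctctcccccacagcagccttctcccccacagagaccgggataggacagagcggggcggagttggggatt
The match lies 232 to 225 bases before the start (positions 102445135 to 102445142). Both strands were searched for CAAGGTCA and its reverse complement TGACCTTG, and 512 of 32851 RefSeq windows of 300 bases (250 before to 50 after a start), 1.56%, held a match. Windows were found for 6 of the 7 genes, and those of Bmpr1a, Bmpr1b, Acvr1, Smad1 and Smad5 held none. Such a match is a description of the letters and not a shown binding site.

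Amh was a Sertoli transcript in both libraries. As gated, Sertoli cells held 39918 Amh UMIs in wild type, 947 CPM (938 to 956), with a UMI in 89.3% of cells. The library labelled Ddx5 knockout held 30118 UMIs, 923 CPM (913 to 934), in 89.9% of cells. In separated Sertoli cells the levels were 1166 CPM (1154 to 1179) and 1131 CPM (1117 to 1145), and 99.0% and 99.7% of the cells held the transcript.

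Outside Sertoli cells the Amh level depended on how the cells were gated. As gated, stromal cells stood at 114 and 127 CPM, myoid cells at 75.8 and 57.9 CPM, Leydig cells at 44.5 and 84.9 CPM, and germ cells at 152 and 2.16 CPM. After separation every one of these classes stood at 6.01 CPM or less. Stroma held 4.44 CPM (3.68 to 5.31) and 4.43 CPM (3.63 to 5.36), Leydig cells 4.10 and 2.73 CPM from 9 and 5 UMIs, and myoid cells 2.80 and 3.62 CPM. Macrophages held 2 and 1 UMIs, 4.91 and 2.83 CPM, in 8% and 5% of cells with a median of 16412 and 17441.5 UMIs. The Amh shares of separated stroma (4.48% and 4.47% of cells, median 9428 and 9541 UMIs) and of Leydig cells (5.71% and 4.95%, median 14577 and 16821 UMIs) lay at this macrophage background and are not read as expression. The order of Amh levels was therefore Sertoli first, with the intervals of the other separated classes overlapping within each library.

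**Figure D1:**
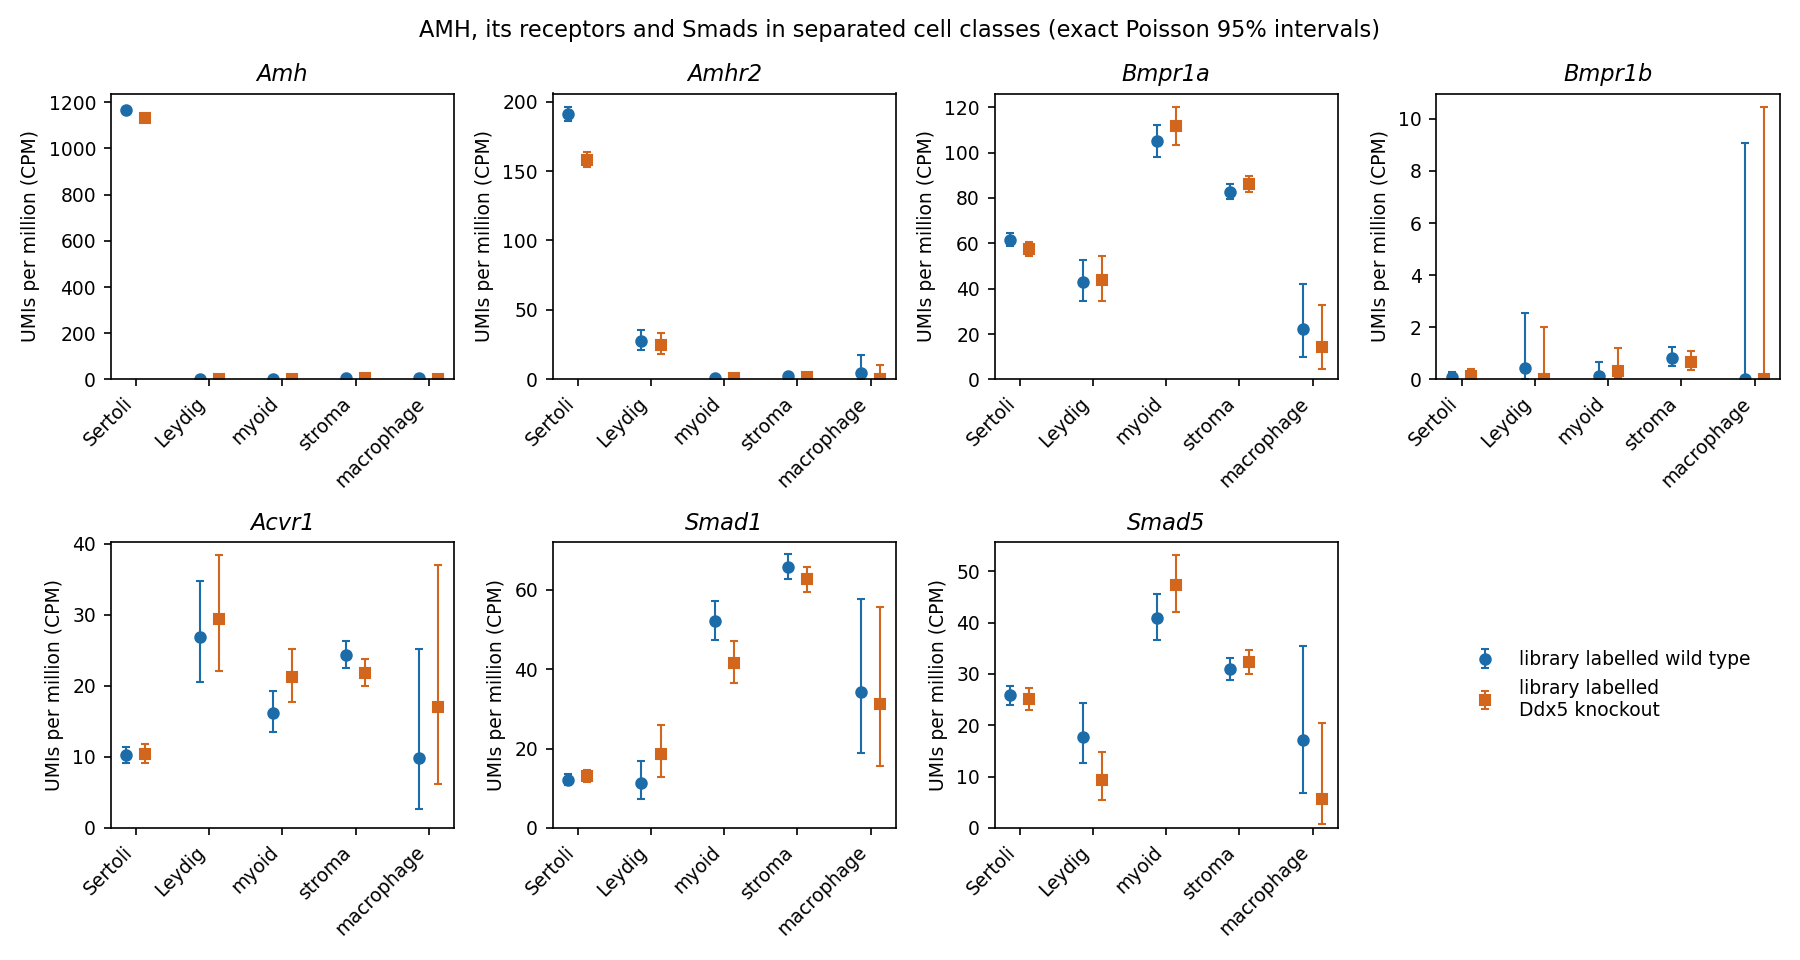
Levels of the 7 genes in CPM (vertical axis, linear, 1 panel for each gene) in separated Sertoli, Leydig, myoid, stroma and macrophage cells of the wild type library and the library labelled Ddx5 knockout, with 95% Poisson intervals as bars. Amh and Amhr2 stand highest in Sertoli cells, Amhr2 has a second, lower level in Leydig cells, and Bmpr1a and Smad1 are lower in Sertoli cells than in myoid cells and stroma.

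The Sertoli-to-stroma ratio of Amh showed the same dependence. It was 8.32 and 7.26 as gated and 262 (219 to 317) and 255 (211 to 311) in separated cells. Cells sorted by how many of the 4 Sertoli markers they carried placed the step more exactly. With 0 markers Amh stood at 3.84 and 4.01 CPM, with 1 marker at 4.81 and 4.70 CPM, and with 2 markers at 13.0 (9.71 to 17.1) and 11.4 (7.82 to 16.0) CPM, in 10.3% and 11.3% of cells. With 3 markers it was 389 and 523 CPM, and with all 4 markers 1069 and 1031 CPM, in 99.6% and 99.7% of cells. The 272 and 186 cells with exactly 2 markers passed the Sertoli gate but carried little Amh, and they resembled cells below the gate more than the 2247 and 1616 cells with all 4.

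**Figure D2:**
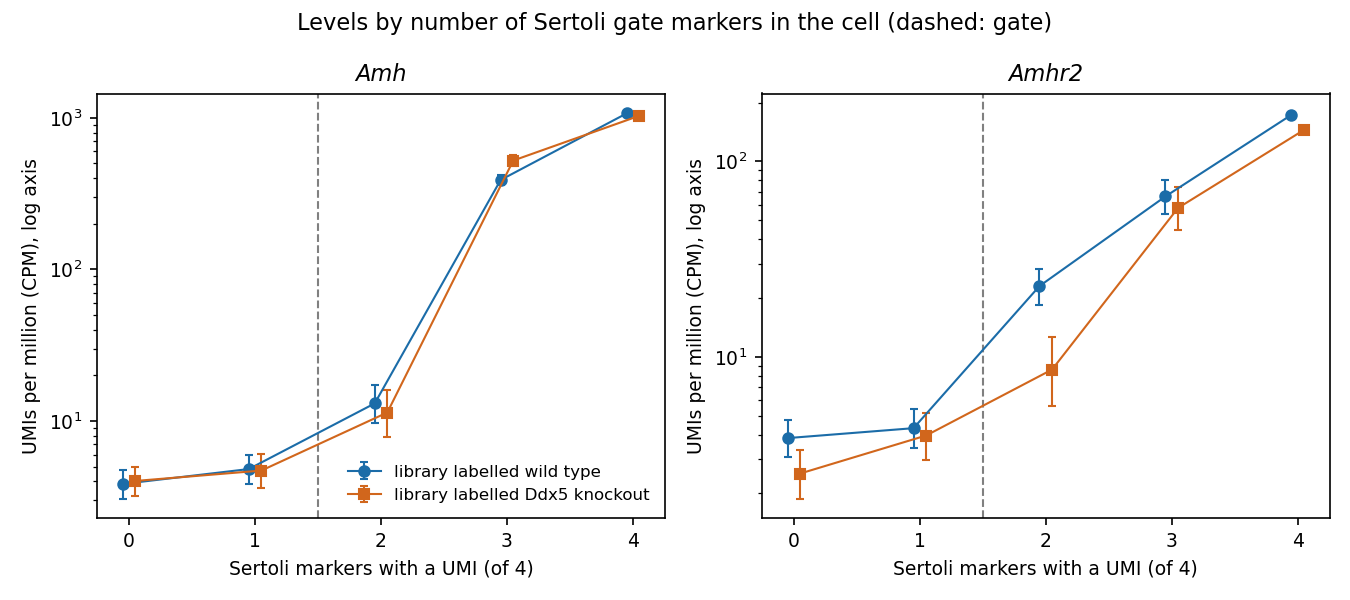
Amh and Amhr2 in CPM (vertical axis, log scale) against the number of the 4 Sertoli markers Rhox8, Cst9, Cst12 and Aard found in a cell (horizontal axis, 0 to 4) for both libraries, with 95% Poisson intervals and a dashed line at the gate. Amh steps from 13.0 and 11.4 CPM at 2 markers to 1069 and 1031 CPM at 4, and Amhr2 from 23.0 and 8.60 CPM to 173 and 145 CPM.

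Among separated Sertoli cells the hormone was carried by nearly every cell and varied several-fold from cell to cell. The median cell held 15 and 17 Amh UMIs (wild type first), with highest counts of 80 and 108. The per-cell level ran from 362 CPM at the 5th percentile through a median of 1110 to 2251 CPM at the 95th percentile in wild type, and from 334 through 1039 to 2252 CPM in the other library. Only 20 and 4 cells held no Amh UMI. Part of this range is counting error at such UMI numbers, and its size was not tested.

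Amh differed little between the libraries in Sertoli cells. The level in the library labelled Ddx5 knockout was 0.975 times that of wild type as gated (0.960 to 0.989) and 0.970 times in separated cells (0.954 to 0.986). These intervals miss 1 because the counts are large, and the size of the difference between 2 litters of 1 genotype is not known here.

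Genes with a pattern like Amh were ranked by Pearson's r of log2(CPM + 10) over 10 points, the 5 gated types in 2 libraries, which share libraries and gates. The closest of 14575 genes were Aard (0.997), Cst9 (0.993), Tesc (0.993), Lpl (0.991) and Gatm (0.991), and the first 2 of them belong to the Sertoli gate itself. Over the 2615 and 1876 Sertoli-gated cells, which include the cells with few markers, the genes most correlated with Amh were Inha (0.819 and 0.802), which encodes the inhibin α subunit, Ptgds (0.796 and 0.804), a prostaglandin D synthase, Defb19 (0.810 and 0.787), Clu (0.820 and 0.780) and Gstm2 (0.798 and 0.773). Amhr2 had r values of 0.512 and 0.496 with Amh over the same cells, Smad1 -0.240 and -0.297, and Acvr1 -0.110 and -0.137. Bmpr1a (-0.076 and -0.054) and Smad5 (-0.053 and -0.036) were too weakly correlated to be read in counts this sparse. Acvr1, with a UMI in only 15.5% and 18.6% of these cells, is not read either. Of the Sertoli-gated cells 536 and 465 also passed the stroma gate, and their part in these r values was not tested.

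Amh was also read by cell cycle state. A mitotic Sertoli cell carried at least 4 of 8 G2/M genes (Ube2c, Cdc20, Ccnb1, Plk1, Aurka, Cenpf, Prc1, Top2a), an S phase cell was not mitotic and carried at least 4 of 8 S phase genes (Pclaf, Tyms, Rrm2, Mcm3, Mcm5, Mcm6, Gins2, Clspn), and a non-cycling cell carried at most 1 of each list. In separated Sertoli cells these were 718 and 570 mitotic, 490 and 368 S phase and 299 and 131 non-cycling cells, with 487 and 308 between the classes. The states are ranges of a score, and 128 and 90 cells held 3 G2/M genes, just under the cut, against 81 and 65 with 4.

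Amh was present at a high level in every state of separated Sertoli cells. It stood at 1216 CPM in non-cycling, 1301 CPM in S phase and 1090 CPM in mitotic wild type cells, and at 1127, 1294 and 1021 CPM in the library labelled Ddx5 knockout. Mitotic cells were thus slightly below non-cycling cells in both libraries, with ratios of 0.896 (0.865 to 0.929) and 0.906 (0.861 to 0.954). S phase cells were the highest of the 3 states in both libraries, at 1.07 and 1.15 times the non-cycling level. Median per-cell levels followed a like order in the library labelled Ddx5 knockout, 1202 CPM in S phase, 1088 CPM in non-cycling and 938 CPM in mitotic cells, and in wild type were 1198, 1128 and 1065 CPM.

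As gated, the same comparison gave another answer. The mitotic to non-cycling ratio of Amh was 0.973 (0.941 to 1.01) in wild type and 1.23 (1.17 to 1.29) in the library labelled Ddx5 knockout, from 871 against 895 CPM and 866 against 704 CPM. Cells with only 2 of the 4 Sertoli markers made up 23.8% and 32.1% of the non-cycling Sertoli-gated cells but 8.10% and 5.63% of the mitotic ones, and in separated cells the ratio in the library labelled Ddx5 knockout lay on the other side of 1. Depth also moved with state, since the median cell as gated held 18367 and 20066.5 UMIs in mitosis against 10481 and 11471.5 UMIs in non-cycling cells. With cells thinned to 5000 UMIs the ratios were 1.02 and 1.22 as gated and 0.893 and 0.892 in separated cells. The states were still called at full depth, and the part of depth in that call was not tested.

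**Figure D3:**
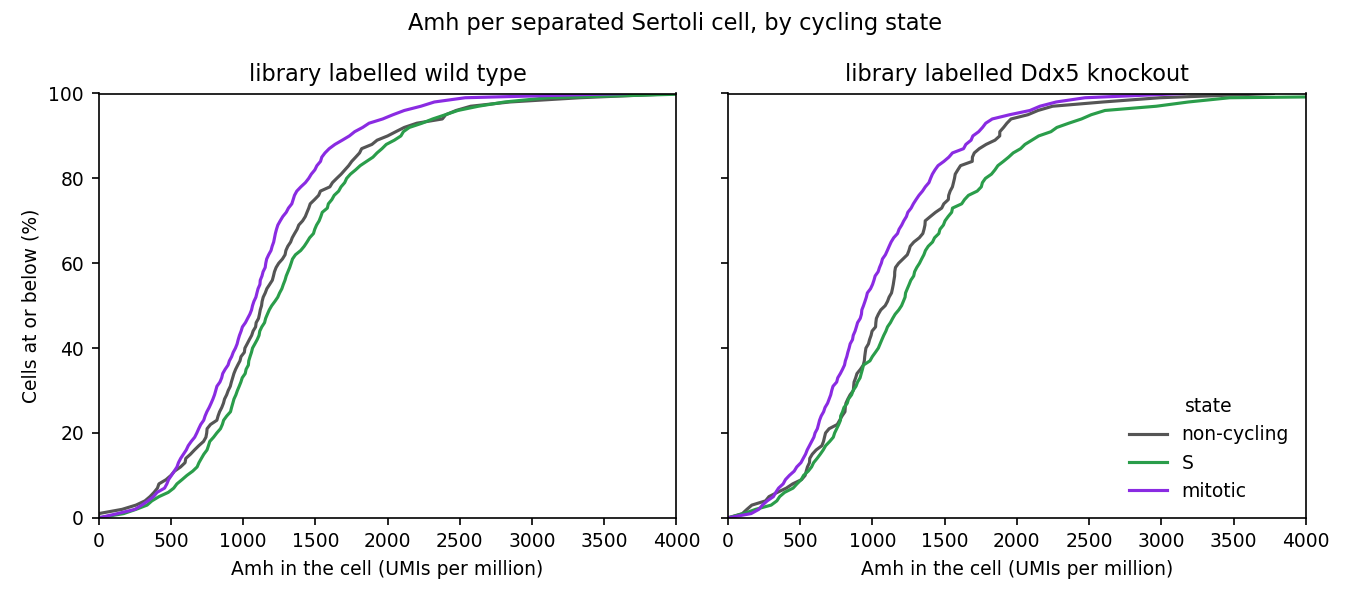
Cumulative percent of separated Sertoli cells (vertical axis) against the Amh level of the single cell in CPM (horizontal axis, linear) for non-cycling, S phase and mitotic cells, with 1 panel for each library. The curves lie close together, cross in their lower part, and at their middle have S phase cells to the right (medians of 1198 and 1202 CPM) and mitotic cells to the left (1065 and 938 CPM).

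Amhr2, the receptor that makes a cell able to bind the hormone, was found in Sertoli cells and in Leydig cells and was near background in myoid cells and stroma. In separated Sertoli cells it stood at 191 CPM (186 to 196) in 89.6% of wild type cells and at 158 CPM (153 to 164) in 86.3% of cells of the library labelled Ddx5 knockout. Separated Leydig cells held 27.8 CPM (21.3 to 35.7), 61 UMIs in 27.9% of cells, and 25.1 CPM (18.4 to 33.5), 46 UMIs in 29.7% of cells. Stroma held 2.37 and 1.99 CPM in 2.37% and 1.92% of cells, myoid cells 1.22 and 1.32 CPM, and macrophages 2 and 0 UMIs. The order was Sertoli, then Leydig, then the others, and the intervals of stroma and myoid cells overlapped.

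The Sertoli level of Amhr2 was 80.6 (63.0 to 105) and 79.5 (59.8 to 108) times that of stroma and 6.86 (5.34 to 8.99) and 6.30 (4.71 to 8.62) times that of Leydig cells. The Leydig level was 11.7 (8.13 to 16.9) and 12.6 (8.24 to 19.3) times that of stroma. As gated, the Leydig-to-stroma ratio was only 1.89 and 1.91, since the stroma-gated cells that also passed the Sertoli gate carried Amhr2 at 81.0 and 72.1 CPM.

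The Amhr2 of Leydig cells came without the Amh of Sertoli cells. In separated Leydig cells 61 and 46 UMIs of Amhr2 stood beside 9 and 5 of Amh, whereas separated Sertoli cells held 5608 and 3499 UMIs of Amhr2 beside 34257 and 25015 of Amh. Both genes were found together in 1.43% and 1.98% of Leydig cells and in 89.2% and 86.3% of Sertoli cells. Thinned to 5000 UMIs a cell, the Leydig shares with Amhr2 were 12.9% and 11% and the Sertoli shares 60.1% and 52.9%, so depth set much of the full-depth share.

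Amhr2 was the member that differed most between the libraries in Sertoli cells apart from Bmpr1b, whose counts were few. The ratio of the library labelled Ddx5 knockout to wild type was 0.836 (0.804 to 0.869) as gated and 0.829 (0.794 to 0.864) in separated cells. Within the states of separated Sertoli cells it was 0.833 in mitotic, 0.838 in S phase, 0.875 (0.762 to 1.0) in non-cycling and 0.846 in the cells between, and in cells with all 4 markers it was 0.837. In Sertoli-gated cells with 3 of the 4 markers it was 0.873 (0.626 to 1.21), and in those with 2, which held 90 and 25 UMIs of Amhr2, it was 0.374 (0.230 to 0.588). In Leydig cells the ratio was 0.903 (0.602 to 1.35), an interval that holds both no difference and the Sertoli value. Across separated Sertoli cells split by total UMIs into 4 groups of like size, Amhr2 ran 218, 221, 190 and 166 CPM from the shallowest to the deepest group in wild type and 188, 172, 161 and 135 CPM in the other library, whose cells were deeper (median 14821 against 12950 UMIs). The groups were cut within each library and are not matched on depth, with medians from 9785 to 20702 UMIs in wild type and from 11155 to 22017 UMIs in the other library, which was the deeper one in each group. The part of depth in the library difference was not tested.

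Amhr2 also differed by state. In separated Sertoli cells it stood at 225 and 197 CPM in non-cycling, 209 and 175 CPM in S phase and 158 and 132 CPM in mitotic cells, with mitotic to non-cycling ratios of 0.704 (0.646 to 0.768) and 0.670 (0.591 to 0.761). This was the same order of states in both libraries. Neither ratio was past 1.5-fold. Mitotic cells were also the deepest, and Amhr2 was also lower in deeper cells of 1 state. In non-cycling cells split into 4 groups from the shallowest to the deepest the interval was 209 to 294 CPM in the shallowest and 176 to 234 CPM in the deepest group of wild type (75 cells each), which overlap, and 208 to 332 and 127 to 200 CPM in the other library (33 cells each), which do not. The part of depth in the difference between states was not tested further.

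The genes with the pattern most like Amhr2 over the 10 points were Slc26a7 (r = 0.9995), A730049H05Rik (0.995), Slc27a3 (0.994), Adgrg1 (0.994) and Hsd17b1 (0.991), a steroid dehydrogenase. None of them is a gene of the Sertoli gate.

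A few wild type cells with at least 2 UMIs of Pax8, a transcription factor of the rete testis and of supporting-like cells, carried Amhr2 with less Amh, but the order of the 2 genes turned with the number of Pax8 UMIs asked for. All 25 such cells were wild type, the library labelled Ddx5 knockout had 0, and 15 of the 25 passed the Sertoli gate. Their Amhr2 level was 162 CPM (130 to 201) in 20 cells, and their Amh level was 83.2 CPM (60.2 to 112) in 9 cells. With at least 1 UMI of Pax8 the 56 wild type cells held Amhr2 at 74.3 CPM (61.7 to 88.7) and Amh at 214 CPM (193 to 238). The other library had 3 such cells, 2 of them with Ecrg4, a second marker of supporting-like cells. In the 20 wild type cells with a UMI of both Pax8 and Ecrg4, Amhr2 stood at 213 CPM (169 to 266) and Amh at 75.5 CPM (50.2 to 109). The cells with at least 2 UMIs of Pax8 also held 10 of the rare Bmpr1b UMIs, 19.3 CPM (9.27 to 35.6), in 9 cells. These levels are of 1 library and rest on few UMIs.

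Bmpr1a, a type I receptor shared with the BMPs, was found in all classes. In separated cells its order was myoid (105 and 112 CPM), stroma (82.8 and 86.1 CPM), Sertoli (61.5 and 57.5 CPM) and Leydig (42.9 and 43.7 CPM), with the same order in both libraries. The myoid, stroma, Sertoli and Leydig intervals did not overlap within wild type (98.1 to 112, 79.4 to 86.3, 58.7 to 64.4 and 34.6 to 52.4 CPM). In the library labelled Ddx5 knockout the Sertoli and Leydig intervals overlapped slightly, at 54.3 to 60.7 and 34.6 to 54.4 CPM. The Sertoli level was 0.743 and 0.667 times that of stroma, and a UMI was found in 55.7% and 57.2% of Sertoli cells.

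Acvr1 (also called ALK2), the other type I receptor known to carry the AMH signal, had a different order. Leydig cells (26.9 and 29.5 CPM) and stroma (24.4 and 21.9 CPM) were the highest, with overlapping intervals, and Sertoli cells (10.2 and 10.4 CPM) were lower, at 0.419 and 0.475 times the stroma level. Myoid cells lay between at 16.2 (13.6 to 19.2) and 21.3 (17.7 to 25.2) CPM, and the second of these overlapped stroma.

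Bmpr1b was close to undetected. Separated Sertoli cells held 3 UMIs in each library, 0.102 and 0.136 CPM, which is the level of the floor of 3 UMIs. Leydig cells held 1 and 0 UMIs, and 0 of 101 cells allows a share of cells with a UMI of up to 2.97% (the floor of 3 counts). Stroma held 22 and 16 UMIs, 0.815 (0.510 to 1.23) and 0.663 (0.379 to 1.08) CPM. No ratio between these classes is given at this depth.

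Smad1, which carries the signal from the type I receptors, was low in Sertoli and Leydig cells. It stood at 12.2 (10.9 to 13.5) and 13.1 (11.6 to 14.7) CPM in separated Sertoli cells and at 11.4 (7.38 to 16.8) and 18.6 (12.9 to 25.9) CPM in Leydig cells, intervals that overlap. Myoid cells held 52.1 and 41.5 CPM and stroma 65.8 and 62.6 CPM, so the Sertoli level was 0.185 and 0.209 times and the Leydig level 0.173 and 0.297 times that of stroma. Within stroma, cells with at least 2 of Lum, Dpt and Aspn alone (656 and 740 cells) held 87.7 and 80.1 CPM, and cells with at least 2 of Tbata, Cyp26b1 and Smoc2 alone (935 and 665 cells) held 47.5 and 44.9 CPM.

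Smad5, which acts beside Smad1, was highest in myoid cells among these 4 classes. Myoid cells held 41.0 and 47.3 CPM, stroma 31.0 and 32.2 CPM, Sertoli cells 25.8 and 25.04 CPM and Leydig cells 17.8 (12.6 to 24.3) and 9.28 (5.41 to 14.9) CPM. The wild type Leydig interval overlapped that of Sertoli cells (24.0 to 27.7 CPM), and the other did not. The Sertoli-to-stroma ratio was 0.835 and 0.777, and the Leydig-to-stroma ratio was 0.574 and 0.288 from 39 and 17 Leydig UMIs.

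Counted over all genes, the members fell on both sides of the Sertoli and stroma comparison. Of the 6 members with at least 20 UMIs in each library, counted over the compared classes together, 2 were higher in separated Sertoli cells than in stroma past 1.5-fold in both libraries (Amh and Amhr2), where 24.2% of 15785 genes were, and 2 were lower (Acvr1 and Smad1), where 28.2% were. Their median difference, on the log2(CPM + 10) scale used for all medians of lists, was -0.34, against -0.00 over all genes. Between Leydig cells and stroma 1 of 6 members was higher (Amhr2, background 18.7% of 14496 genes) and 3 were lower (Bmpr1a, Smad1 and Smad5, background 30.5%). Between mitotic and non-cycling separated Sertoli cells 0 of 6 members were higher past 1.5-fold in both libraries (background 8.14% of 12095 genes) and 0 were lower (3.33%). These shares are near those of all genes, so the counts say nothing particular about the members as a group. In the library labelled Ddx5 knockout Acvr1 was 2.02 times higher in mitotic cells (1.03 to 4.53, from 131 and 9 UMIs) and in wild type 1.43 times (0.936 to 2.28). Smad1 was 1.25 (0.757 to 2.20) times higher in the library labelled Ddx5 knockout and 1.83 (1.19 to 2.92) times in wild type.

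Parts of the receiving machinery were found together in the same cells. Amhr2 and at least 1 type I receptor were both detected in 55.7% and 54.0% of separated Sertoli cells, in 20% and 21.8% of Leydig cells and in 1.54% and 1.11% of stromal cells. Amhr2, a type I receptor and Smad1 or Smad5 were detected in 23.5% and 24.6% of Sertoli cells and in 5.71% and 4.95% of Leydig cells. A type I receptor was found in 62.2% and 62.6% of Sertoli cells with Amhr2 and in 51.4% and 62.8% of those without. These shares moved strongly with depth. Thinned to 5000 UMIs a cell, Amhr2 and a type I receptor were found together in 18.2% and 13.3% of Sertoli cells, 2.86% and 2% of Leydig cells and 0.539% and 0.436% of stromal cells. A type I receptor was then found in 30.3% and 25.1% of Sertoli cells with Amhr2 and in 27.2% and 29.9% of those without.

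Between the libraries no member was past 1.5-fold in Sertoli cells as gated. This was 0 of 7 members, where 14.3% of 17498 genes were past it, and the median of the 7 was -0.01 on the log2 scale as it was over all genes. The ratios of the library labelled Ddx5 knockout to wild type were 0.923 (0.870 to 0.978) for Bmpr1a, 1.13 (0.987 to 1.29) for Acvr1, 1.09 (0.983 to 1.21) for Smad1, 0.992 (0.907 to 1.08) for Smad5 and 0.738 (0.268 to 1.89) for Bmpr1b. In separated Sertoli cells Bmpr1a was 0.934 (0.869 to 1.0), Acvr1 1.02 (0.854 to 1.21), Smad1 1.08 (0.917 to 1.26) and Smad5 0.969 (0.867 to 1.08).

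**Figure D4:**
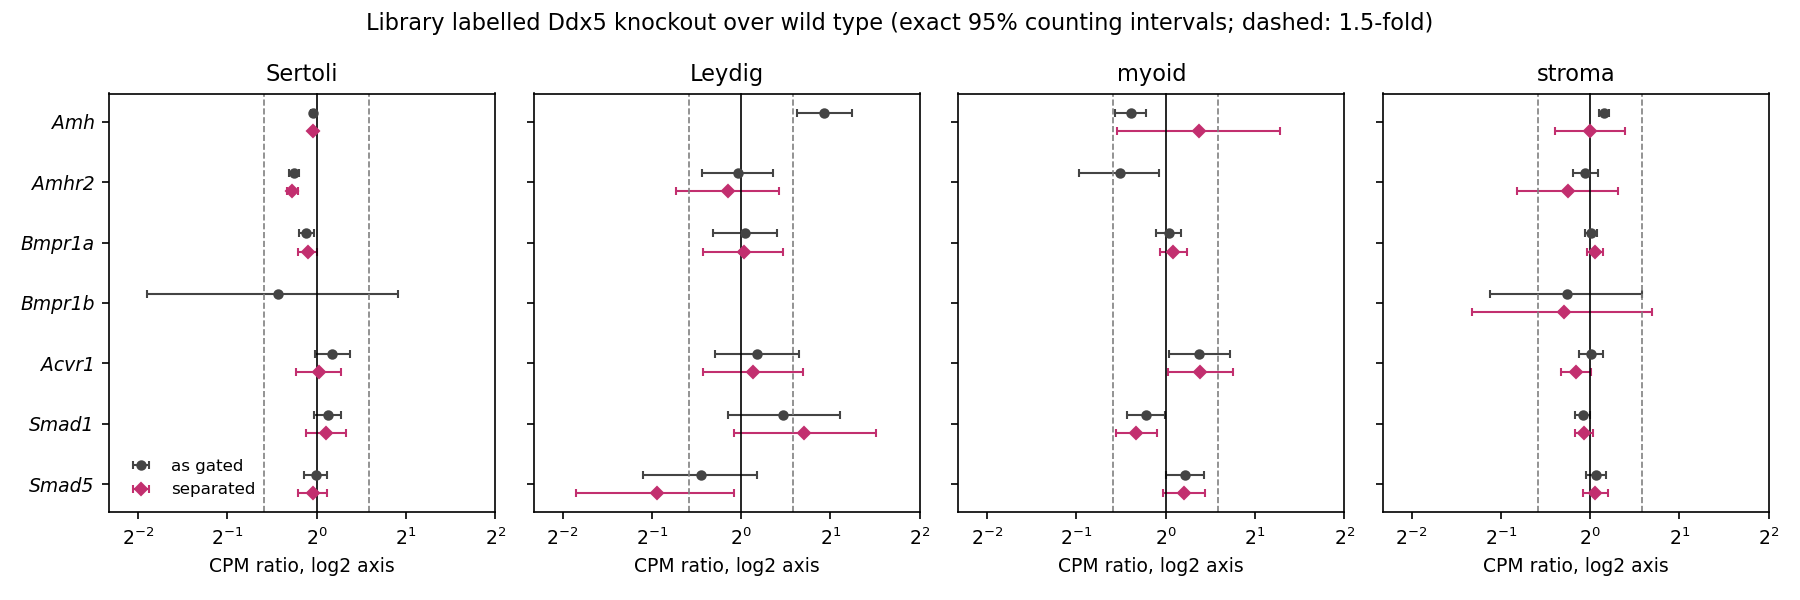
CPM ratio of the library labelled Ddx5 knockout to wild type (horizontal axis, log2 scale from 0.2 to 4) for the members in Sertoli, Leydig, myoid and stroma cells, as gated and separated, with exact 95% intervals and dashed lines at 1.5-fold. Ratios from fewer than 20 UMIs are not drawn, every Sertoli and stroma point drawn lies between the dashed lines, and the Amh point of Leydig cells as gated lies at 1.91.

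In Leydig cells as gated 1 of 6 members was past 1.5-fold (background 11.5% of 11251 genes). This was Amh, at 44.5 against 84.9 CPM, a ratio of 1.91 (1.54 to 2.37), and the share of Leydig-gated cells that also passed the Sertoli gate was 20.9% against 29.4%. In separated Leydig cells the Amh ratio was 0.665 (0.175 to 2.21). There Smad5 had a ratio of 0.522 (0.277 to 0.944) from 39 and 17 UMIs and Smad1 of 1.63 (0.943 to 2.85) from 25 and 34 UMIs, and Bmpr1a (1.02), Acvr1 (1.10) and Amhr2 (0.903) lay closer to 1.

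In myoid cells 0 of 6 members as gated were past 1.5-fold (background 8.97% of 13808 genes), and in stroma 0 of 7 (10.3% of 17858 genes). Separated myoid cells held Acvr1 at 1.31 (1.02 to 1.68) and Smad1 at 0.798 (0.680 to 0.934) times the wild type level. Separated stroma stayed within 0.839 to 1.04 for the 6 members other than Bmpr1b, and Amh there had a ratio of 0.998.

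Germ cells gave too few cells to compare. Only 12 germ-gated cells were left in the library labelled Ddx5 knockout, where 5 of 6 members were lower past 1.5-fold (Amh, Amhr2, Bmpr1a, Smad1 and Smad5), against 70.8% of all 12394 genes past it in either direction. Outside the Sertoli gate 57 and 6 germ cells remained, with Bmpr1a at 82 UMIs (49.3 CPM) and 1 UMI (6.74 CPM), a ratio of 0.137 (0.00342 to 0.783). The wild type germ cells also held Smad1 at 25.2 CPM and Smad5 at 23.4 CPM, and Amh at 6.01 CPM from 10 UMIs.

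The rest of the pathway was read from lists chosen by name. Of the type II receptors and Smads (Bmpr2, Acvr2a, Acvr2b, Smad4 and Smad9) 4 were measured between separated Sertoli cells and stroma, and 1 was higher past 1.5-fold in both libraries, a share like the 24.2% of all genes. This was Acvr2b, an activin receptor, at 15.4 and 14.6 CPM against 2.78 and 4.14 CPM. Bmpr2, the main BMP type II receptor, stood at 80.1 and 69.5 CPM in Sertoli cells, 65.2 and 58.4 CPM in Leydig cells, 79.8 and 80.4 CPM in myoid cells and 74.2 and 75.8 CPM in stroma. Its Sertoli-to-stroma ratio was 1.08 (1.02 to 1.15) in wild type and 0.917 (0.856 to 0.982) in the other library, on opposite sides of 1, and its Leydig-to-stroma ratio was 0.878 (0.736 to 1.04) and 0.771 (0.628 to 0.937). Smad4, the common partner of the signal-carrying Smads, stood at 104 CPM in Sertoli cells and in stroma of both libraries and at 56.1 and 61.1 CPM in Leydig cells.

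Inhibitors of the pathway were split between Sertoli cells and stroma. Of 7 listed, 5 were measured, 3 were higher in Sertoli cells (24.2% of all genes were) and 2 lower (28.2%). Smad7, an inhibitory Smad, stood at 390 and 406 CPM in Sertoli cells against 34.9 and 35.3 CPM in stroma, a ratio of 11.2 (10.4 to 11.9) and 11.5 (10.7 to 12.4). Smad6, the inhibitory Smad of the BMP branch, stood at 20.4 and 14.6 CPM, 9.32 (7.12 to 12.4) and 6.18 (4.65 to 8.34) times the stroma level. Bambi, a decoy receptor, was 2.06 and 1.85 times the stroma level, and the secreted antagonists Chrdl1 and Fst were the 2 lower ones. In Leydig cells Smad7 was 1.11 (0.878 to 1.39) and 1.19 (0.931 to 1.51) times the stroma level, and Bambi and Chrdl1 were lower past 1.5-fold.

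Targets of the BMP type Smads that reached the UMI minimum, all of them Id genes, were lower in Sertoli and Leydig cells than in stroma. Of 6 listed, 4 were measured, and 3 were lower in Sertoli cells than in stroma past 1.5-fold in both libraries (Id1, Id2 and Id4; 28.2% of all genes were), while all 4 Id genes were lower in Leydig cells (30.5% of all genes were). Id1, an inhibitor of DNA binding that BMP signals induce, stood at 124 and 98.1 CPM in Sertoli cells, 68.8 and 53.5 CPM in Leydig cells, 392 and 439 CPM in myoid cells and 407 and 396 CPM in stroma. Id3 stood at 257 and 181 CPM, 67.5 and 75.3 CPM, 443 and 393 CPM, and 348 and 306 CPM in the same classes. The median difference of the targets was -0.80 on that scale between Sertoli cells and stroma and -1.56 between Leydig cells and stroma, against -0.00 and -0.08 over all genes. The Id genes answer to many signals and are not a readout of AMH alone.

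**Figure D5:**
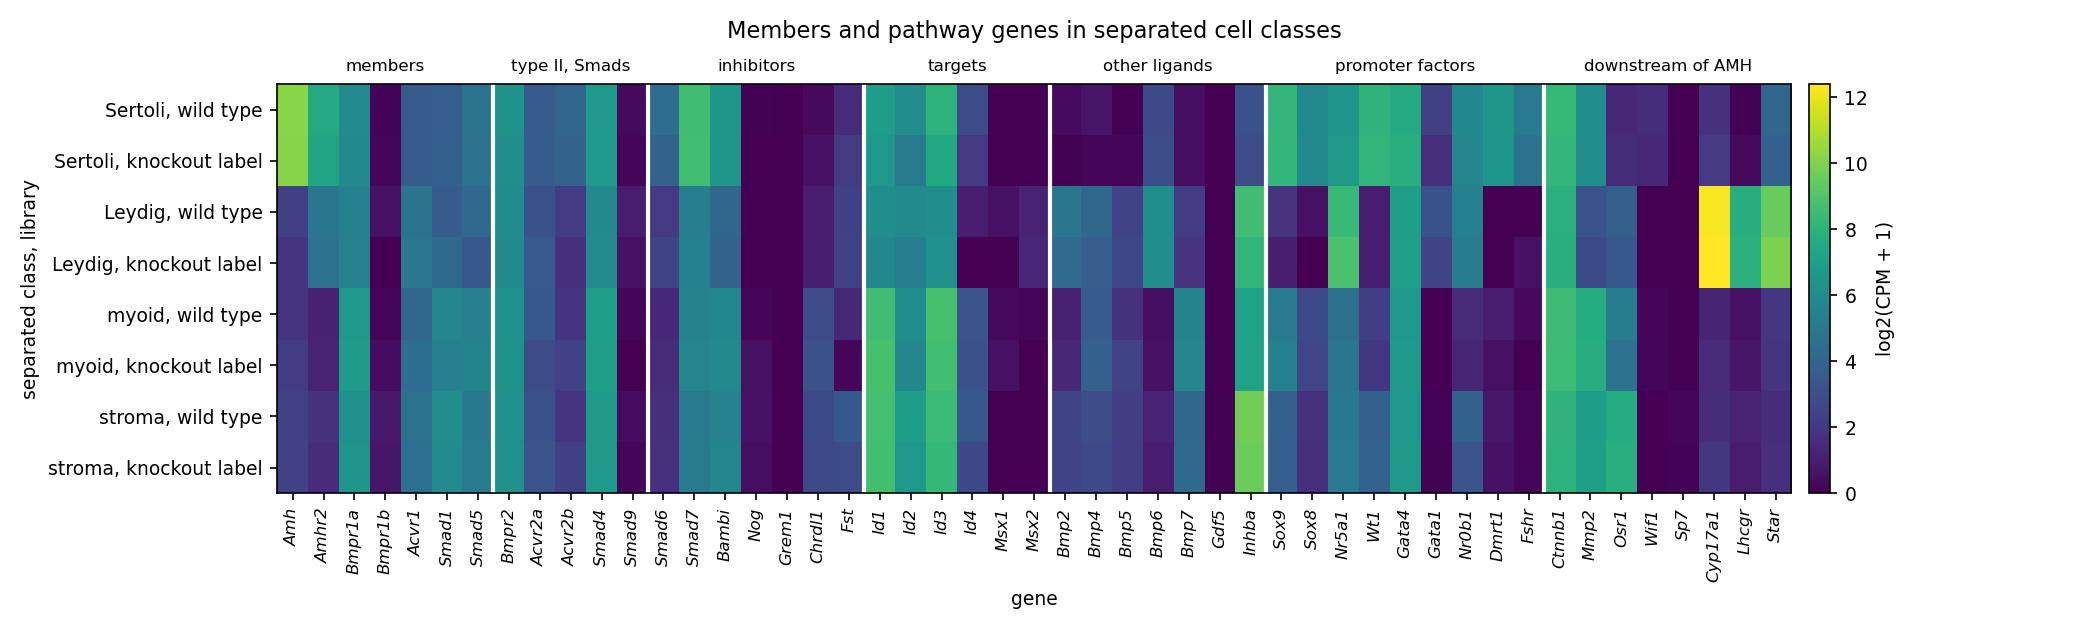
Heat map of log2(CPM + 1) for the members and the pathway lists (horizontal axis) in separated Sertoli, Leydig, myoid and stroma cells of both libraries (vertical axis), with brighter colours for higher levels. Smad7, Sox9, Wt1 and Dmrt1 are brightest in Sertoli cells, Bmp6, Cyp17a1, Lhcgr and Star in Leydig cells, Inhba in stroma, and Id1 and Id3 in myoid cells and stroma.

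The Id genes also differed between the libraries in Sertoli cells. As gated, 3 of 5 measured targets were lower past 1.5-fold in the library labelled Ddx5 knockout (Id2, Id4 and Msx2), with a list median of -0.38 on the log2 scale against -0.01 over all genes and the background of 14.3% given above. Msx2 rested on 26 and 6 UMIs, of which separated Sertoli cells held 1 and 0. In separated Sertoli cells Id1 had a ratio of 0.789 (0.748 to 0.832), Id2 of 0.509 (0.468 to 0.554), Id3 of 0.704 (0.677 to 0.731) and Id4 of 0.530 (0.396 to 0.701). All 4 were lower beyond counting error, Id2 and Id4 past 1.5-fold. In separated stroma the ratios were 0.972 (0.946 to 1.0) for Id1, 0.795 (0.753 to 0.838) for Id2, 0.879 (0.853 to 0.907) for Id3 and 0.568 (0.456 to 0.705) for Id4. As gated, 1 of 4 measured targets was lower past 1.5-fold in stroma (Id4), where 10.3% of all genes were past it. Other classes did not all go the same way, since Id1 in myoid cells had a ratio of 1.12 (1.07 to 1.18). Of the inhibitors, 0 of 5 measured were past 1.5-fold in Sertoli cells as gated. Smad6 in separated Sertoli cells had a ratio of 0.717 (0.625 to 0.823), Smad7 of 1.04 (1.01 to 1.07), Bambi of 0.998 (0.942 to 1.06) and Fst of 1.79 (1.27 to 2.55). With 1 library a genotype, genotype and library cannot be told apart as sources of this difference.

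Other ligands of the BMP and activin branches of the family were mostly lower in Sertoli cells than in stroma. Of 7 listed, 6 were measured, 5 were lower past 1.5-fold in both libraries (28.2% of all genes were), and 1, Bmp6, was higher (24.2% of all genes were; 5.68 and 6.87 against 1.30 and 0.953 CPM). Leydig cells had the highest Bmp6 of the 4 classes, at 70.2 and 68.8 CPM, and the highest Bmp2, at 28.3 and 19.1 CPM. Bmp7 was highest in myoid cells at 47.4 and 52.7 CPM, and Inhba, the activin βA subunit, in stroma at 841 and 762 CPM. Gdf5 held 0 UMIs in separated Sertoli cells of both libraries.

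Factors known to act on the Amh promoter, or on Amh through hormones, were mostly Sertoli genes. The 9 listed factors reported here were all higher in separated Sertoli cells than in stroma past 1.5-fold in both libraries, against the background of 24.2% given above. Sox9, which starts Amh expression in the fetal testis, stood at 283 and 292 against 12.8 and 12.2 CPM. Wt1 stood at 271 and 284 against 12.7 and 14.1 CPM, Gata4 at 199 and 217 against 96.5 and 102 CPM, and the FSH receptor Fshr at 34.6 and 24.9 against 0.111 and 0.124 CPM.

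Nr5a1, the factor whose type of site lies upstream of Amhr2, stood at 89.9 and 104 CPM in Sertoli cells, 323 and 456 CPM in Leydig cells, 22.6 and 28.5 CPM in myoid cells and 31.8 and 32.3 CPM in stroma. Its order of classes was not that of Amhr2, which was higher in Sertoli than in Leydig cells. Whether Nr5a1 acts on Amhr2 was not tested. Between the libraries 1 of these 9 factors was past 1.5-fold in Sertoli cells as gated, Gata1, with a ratio of 0.628 (0.465 to 0.841) from 144 and 70 UMIs, and 14.3% of all genes were past it. Fshr, which carries the FSH signal that raises Amh, had a ratio of 0.734 (0.667 to 0.808).

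The next list held genes known to lie downstream of AMH in the Müllerian duct or in Leydig cells. Of 8 listed, 7 were measured between Sertoli cells and stroma, with 2 higher in Sertoli cells (Wif1 and Star, where 24.2% of all genes were) and 3 lower (Mmp2, Osr1 and Lhcgr, where 28.2% were). Between Leydig cells and stroma 6 were measured, with 3 higher in Leydig cells (Cyp17a1, Lhcgr and Star, where 18.7% of all genes were) and 2 lower (Mmp2 and Osr1, where 30.5% were). Wif1, a secreted Wnt inhibitor induced by AMH in duct mesenchyme, held 61 and 37 UMIs in separated Sertoli cells and 0 in separated stroma of both libraries. Sp7, another such target, held 0 UMIs in Sertoli and Leydig cells and 3 and 2 in stroma. In Leydig cells Cyp17a1, the enzyme that AMH is known to lower, stood at 5024 and 5396 CPM beside the Amhr2 level of 27.8 and 25.1 CPM, and Lhcgr, the LH receptor, at 208 and 230 CPM. Between the libraries 0 of 6 measured genes of this list were past 1.5-fold in Leydig cells as gated (background 11.5%). In Sertoli cells as gated 2 of 7 were (background 14.3%), Cyp17a1 (1.67) and Lhcgr (1.94), but separated Sertoli cells held Cyp17a1 at a ratio of 1.33 (0.940 to 1.88) and only 2 and 5 UMIs of Lhcgr.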

How the data were processed

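The authors deposited 1 table of raw UMI counts per gene and cell barcode, made with Cell Ranger 3.1.0 on GRCm38 with GFP and CRE sequences added. It precedes the study's filters on detected genes and mitochondrial UMIs, and Seurat 3.1.5 is also named in the submitters' processing notes. All 16 labelled samples are whole testes, but the barcodes carry only 2 suffixes. No label ties a suffix to a genotype, so suffixes were assigned from the cell numbers in the study's methods, and CRE UMIs (0 and 20) were checked against this. The 2 libraries shared 12 barcode sequences, treated as separate cells, and 0 columns were unmapped.

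Counts were summed over cells with Python 3.11.15, NumPy 2.4.6 and SciPy 1.17.1, after the filters and gates given above. CPM used all UMIs, genes needed at least 20 UMIs over both libraries for ratios between libraries (in each library for ratios between classes), and the called fold was 1.5. Doublets were called with Scrublet in scanpy 1.11.5 (4.65% and 6.06% of cells), kept, and left out as an alternative. Shares were repeated on cells thinned to 5000 UMIs. The ratio, its interval and the fold rule were tested on simulated summed counts with Poisson error, the error that the interval assumes. Gates, cycling classes, thinning and doublet calls were not tested in this way. Figures were drawn with Matplotlib 3.10.9, and gene positions are from GENCODE M21.

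The text names the 7 members, fixed lists of pathway genes, and the 5 genes most like Amh or Amhr2 among genes with at least 200 UMIs (over types) or a UMI in at least 20% of Sertoli-gated cells. Of these lists, 1 gene is not reported here. Members and lists were chosen with earlier results of these data known. Alternatives were other gates, filters, doublet treatment, CPM bases, cell weights, cycling classes, depth, UMI minimum and fold. Proteins were not used here, and Amh had no promoter window to print.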

Additional observations from a re-analysis of the deposited data

Results flagged for a closer look

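The Amh ratio of the library labelled Ddx5 knockout to wild type lay on opposite sides of 1 in different cell types as gated. It was 1.91 (1.54 to 2.37) in Leydig cells and 1.12 (1.07 to 1.16) in stroma, but 0.975 in Sertoli cells, 0.763 in myoid cells and 0.0142 in germ cells, of which 12 were left in that library. The Sertoli gate took in 20.9% and 29.4% of Leydig-gated cells, 13.9% and 14.2% of stroma-gated cells, 11.4% and 9.35% of myoid-gated cells and 54.4% and 50% of germ-gated cells. In separated classes no member had intervals on both sides of 1 among these types. The difference between cell types was not tested.

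Smad5 as gated had a ratio of 1.16 in myoid cells and 0.167 in germ cells, with intervals on opposite sides of 1, and this difference was not tested either.

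Barcodes outside the filter on genes and mitochondrial UMIs, which entered no comparison, also carried the hormone and its receptor. In 434 wild type and 473 other barcodes, with a median of 2329.5 and 2224 UMIs, Amh stood at 214 and 185 CPM (288 and 250 UMIs, in 19.6% and 19.5% of barcodes) and Amhr2 at 31.9 and 26.7 CPM (43 and 36 UMIs). A count of 3 UMIs would be 2.23 and 2.22 CPM there. The source of these UMIs was not tested.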

How the results depend on the processing

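No paired analysis was possible because the numbered libraries of the labels are not separated in the table and no test was run, and with 1 library a genotype none was left out. The 19 results gave 160 values under alternatives, of which 79 moved by less than their interval or count limit, 74 moved further and 7, of a ratio whose own interval lay on 1 side of 1, moved to the other side. The separated classes, and the other cycling classes and thinning applied to them, were chosen after seeing the data. For Sertoli and stromal cells the separated classes are the cells of exactly 1 gate, so some values are counted under both names.

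These 7 were of the mitotic to non-cycling Amh ratio in the library labelled Ddx5 knockout (1.23 as gated). It was 0.906 with cells of exactly 1 gate and in separated classes, the same Sertoli cells counted under both names. It was 0.886 under stricter gates and 0.914 with Mki67 (at least 2 UMIs against 0). In separated classes it was 0.904 with 6 of 8 G2/M genes, 0.833 with Mki67 and 0.892 thinned. As gated it was 1.30 without doublets and 1.09 with a floor of 3000 genes and a ceiling of 5% mitochondrial UMIs. In wild type (0.973, with an interval that holds 1) it lay on either side of 1, at 0.896 with 1 gate and in separated classes, 1.01 without doublets, 0.933 with ribosomal protein and mitochondrial genes outside the CPM base, 0.939 with 3000 genes and 5%, 0.815 under stricter gates, 1.03 as a mean of cells, 0.864 with Mki67 and 1.02 thinned. In separated classes it was 0.886 with 6 of 8 genes, 0.870 with Mki67 and 0.893 thinned.

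The Amh library ratio in Sertoli cells (0.975) was 0.995 without doublets and 0.948 with 3000 genes and 5%, and that of Amhr2 stayed within 0.809 to 0.851 under all alternatives run. The Amh Sertoli-to-stroma ratio (8.32 and 7.26) was 262 and 255 with 1 gate and separated, 22.3 and 21.8 without doublets, 7.69 and 6.60 with 3000 genes and 5%, 11.8 and 10.1 under stricter gates and 16.4 and 14.3 as a mean of cells. The Amhr2 Leydig-to-stroma ratio (1.89 and 1.91) was 13.7 and 13.2 with 1 gate, 11.7 and 12.6 separated, 3.88 and 3.48 without doublets and 3.03 and 2.93 as a mean of cells, and in wild type 2.45 with 3000 genes and 5%. Members past 1.5-fold between libraries in Leydig cells (1) numbered 2 of 5 with 1 gate or separated (14.2% and 12.1% of all genes under the same settings), 2 of 7 without a UMI minimum (36.8%), 3 of 6 without doublets or as a mean of cells (11.8% and 13.3%), and 0 at a fold of 2 (3.02%). They numbered 1 of 6 in place of 0 in myoid cells under stricter gates (9.55%). In germ cells with 1 gate or separated they numbered 3 of only 3 measured, in place of 5 of 6 (73.5% and 70.7%). Apart from the gates' construction, the causes were not tested. Few UMIs limit Bmpr1b, and few cells limit all members in germ cells, where only 12 were gated in 1 library.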
